A study of Mus musculus with 6 samples.

Results

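The 10 genes described here are components and feedback targets of the Wnt/beta-catenin pathway, taken by name from the deposited tables: Ctnnb1, Apc, Axin2, Lrp5, Lrp6, Lgr5, Nkd1, Tcf7, Tcf7l2 and Lef1. They are 10 of 25078 genes in the tables, and all 10 were measured in each of 6 RNA-seq libraries. In this pathway a secreted Wnt ligand binds a Frizzled receptor and an LRP co-receptor at the cell surface, which stops a complex of Axin, APC and kinases from marking beta-catenin for destruction. Beta-catenin then enters the nucleus, joins a TCF/LEF factor on DNA and turns on target genes, several of which (Axin2, Nkd1, Lgr5) feed back on the pathway. In liver the pathway sets the identity of the hepatocytes around the central vein, and it is often activated by mutation in liver cancer.

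The cells were Hepa1-6, a mouse hepatoma line derived from a C57/L mouse and grown in DMEM with serum. The parental cells (wt, 1 library) had no treatment. The scramble control (scr, 2 libraries, labelled 25-2 and 50-1) carried a lentiviral scramble vector, and the knockdown group (3 libraries, labelled 25-3, 50-2 and 50-5) carried a lentiviral midnolin shRNA vector. Both transduced groups went through puromycin selection and limiting dilution to colonies that each grew from a single cell, so each such library is the RNA of a clone. The labels do not say what 25 and 50 mean, or whether the libraries of a group, scr or knockdown, come from different clones. The study made more knockdown clones than there are knockdown libraries here but names only sh1 and sh2 for RNA-seq, and it speaks of a scr control clone, so libraries of a group may share a clone. The p-values therefore measure the spread between these libraries only, which may be technical. Midn itself (chr10:80148272-80158368, mm10) stood at 59.6 and 50.8 RPKM in scr and at 20.3, 21.8 and 22.1 RPKM in knockdown, where RPKM is the read count scaled by exon length and library size (log2 fold change -1.38, SE 0.13, adjusted p = 0.0078, lower in 3 of 3 libraries, and 0.0525 without knockdown 50-2). Depth ran from 25586301 to 33119710 counted reads per library. The median gene differed by 0.32 on the log2 scale between the scr libraries, by 0.17 to 0.22 between knockdown libraries, and by 0.37 to 0.43 between a scr and a knockdown library.

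Between knockdown and scr cells, the RNA of beta-catenin (Ctnnb1) and of the transcription factor Tcf7 rose, the RNA of the receptor Lgr5 fell, and the other 7 genes did not pass the test. A gene was called at an adjusted p under 0.05 (edgeR quasi-likelihood test, Benjamini-Hochberg over 11577 genes tested) with a fold change of at least 1.5. Of these 10 genes 3 were called, beside 10.6% of all genes tested. In the upward direction 2 of 10 were called, beside a background of 5.4%, and in the downward direction 1 of 10, beside 5.23%. Groups that did not overlap were common across the whole table, at 50.2% of genes tested, and 6 of the 10 genes had them, so a gap between the groups alone does not set a gene apart here. The median log2 fold change of the 10 genes was 0.25, and that of all genes tested was -0.01. With library 50-5 left out, 3.01% of genes tested were called, and of the 10 genes Tcf7 alone was called.

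**Figure D1:**
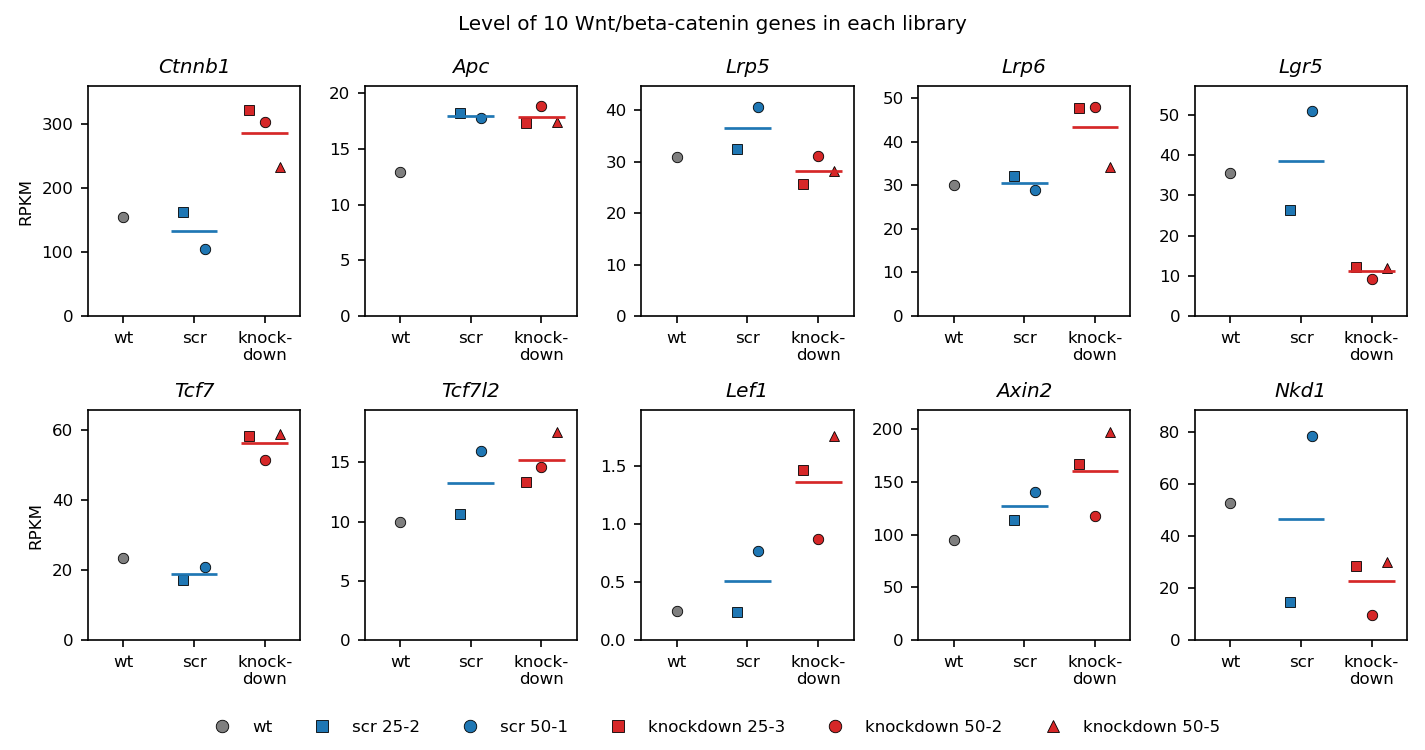
Level of each of the 10 genes in RPKM (vertical axes, each from 0) in the wt, scr and knockdown libraries; points are single libraries and horizontal bars are group means. For Tcf7 the 3 knockdown points lie between 51.5 and 58.8 RPKM, above both scr points at 17.1 and 20.9, whereas for Nkd1 the scr points lie apart at 14.7 and 78.6.

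The signal carrier Ctnnb1 (chr9:120933400-120960507) encodes beta-catenin, and with Axin2 it was the most abundant of the 10 transcripts per length. Its level was 162 and 105 RPKM in the scr libraries 25-2 and 50-1, and 322, 303 and 234 RPKM in the knockdown libraries 25-3, 50-2 and 50-5. Every knockdown library lay above both scr libraries, with 50-5 nearest to them. The means were 134 ± 40.3 RPKM in scr (SD, n = 2) and 286 ± 46.5 RPKM in knockdown (SD, n = 3), a 2.12-fold rise (log2 fold change 1.09, SE 0.25, adjusted p = 0.0496). The parental cells, at 155 RPKM, sat between the scr libraries. These are bulk libraries, in which more RNA per cell and more cells of a high-expressing kind cannot be told apart. The call lies at the edge of the threshold. The adjusted p was 0.0874 to 0.164 when any knockdown library was left out, 0.0892 without scr 50-1, 0.0553 with scaling by total counts and 0.0643 with limma on log2(RPKM + 0.1).

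Jup, which encodes plakoglobin, the close relative of beta-catenin found mainly at cell junctions, moved the other way. It stood at 57.4 and 65.6 RPKM in scr and at 21.1, 30.1 and 25.6 RPKM in knockdown (log2 fold change -1.28, SE 0.18, adjusted p = 0.0157). The ratio of Ctnnb1 to Jup RPKM within a library was therefore 2.83 and 1.60 in scr, 4.12 in wt, and 15.3, 10.1 and 9.13 in knockdown. All 3 knockdown ratios lay above the wt and scr ratios. For knockdown against scr, the exact permutation test gave a two-sided p = 0.2, the smallest that 3 against 2 libraries can give. After Benjamini-Hochberg adjustment over 9 such quantities it was 0.36. Ctnnb1 was higher and Jup lower without overlap, so this order against scr was fixed before the test. The p-value adds nothing to the single-gene values.

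**Figure D2:**
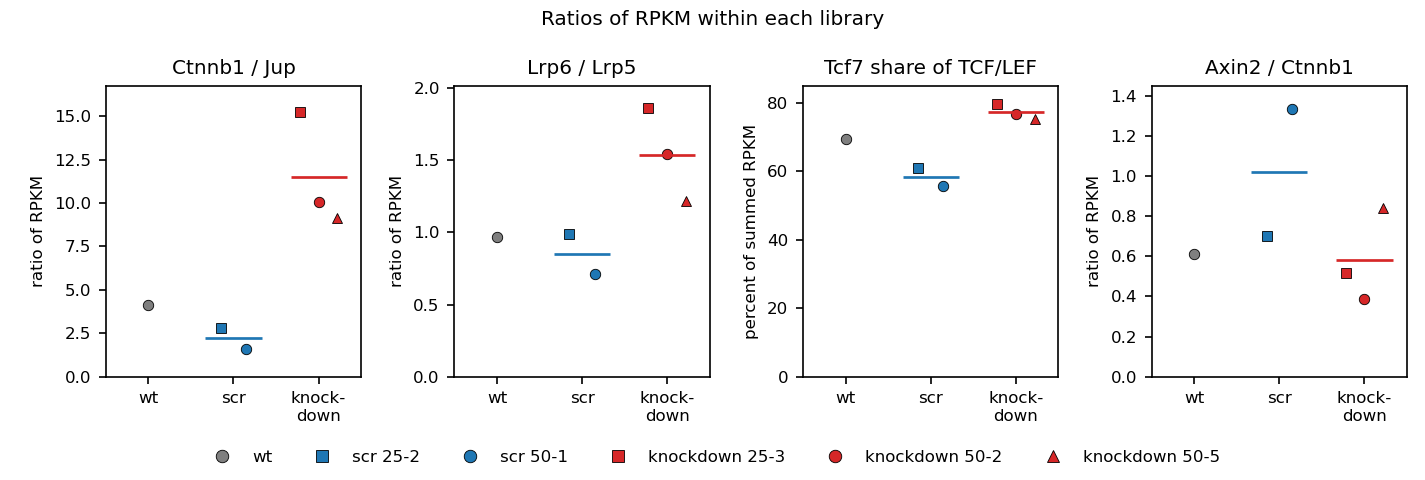
Ratios and shares of RPKM computed within each library (vertical axes) for the wt, scr and knockdown libraries; each point is a library and horizontal bars are group means. The Ctnnb1 to Jup ratio is 1.60 to 4.12 in wt and scr and 9.13 to 15.3 in knockdown, and the Tcf7 share of TCF/LEF RNA is 55.6 to 69.5% in wt and scr and 75.2 to 79.7% in knockdown.

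Among the nuclear factors, Tcf7 (chr11:52252283-52283014), which encodes TCF1, a DNA-binding partner of beta-catenin, had the smallest adjusted p of the 10 genes. It stood at 17.1 and 20.9 RPKM in scr 25-2 and 50-1 and at 58.3, 51.5 and 58.8 RPKM in knockdown 25-3, 50-2 and 50-5. The 3 knockdown libraries sat within 1.14-fold of one another and well above both scr libraries. Mean levels were 19.0 ± 2.70 RPKM in scr (SD, n = 2) and 56.2 ± 4.07 RPKM in knockdown (SD, n = 3), a 2.93-fold rise (log2 fold change 1.55, SE 0.16, adjusted p = 0.0078). Parental cells had 23.3 RPKM, a little above both scr libraries. This was the single gene of the 10 that was called under all 14 alternative settings, with log2 fold changes from 1.43 to 1.70.

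Tcf7l2 (chr19:55741810-55933655), which encodes TCF4, the family member best known from gut epithelium, did not pass the test. It had 10.7 and 15.9 RPKM in scr and 13.3, 14.6 and 17.6 RPKM in knockdown. The groups overlapped, and the log2 fold change was 0.18 (SE 0.22, adjusted p = 0.622). Its sign turned to -0.07 without scr 25-2.

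Lef1 (chr3:131110297-131224357), the family member best known from lymphocyte and hair development, was the lowest of the 10 genes. It had 26 and 81 counts in scr (0.240 and 0.771 RPKM) and 171, 104 and 215 counts in knockdown (1.47, 0.873 and 1.76 RPKM). The knockdown libraries were higher without overlap, though 50-2 was close to scr 50-1. Lef1 passed the filter of more than 1 RPKM in some compared library through knockdown libraries 25-3 and 50-5 only, and it was not called (log2 fold change 1.43, SE 0.59, adjusted p = 0.168). It was called when scr 50-1 was left out (log2 fold change 2.50, adjusted p = 0.0498), a fit with a lone scr library of 26 counts that is assumed to vary like the knockdown libraries.

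Tcf7l1 had at most 4 counts in any library, so the TCF/LEF RNA of these cells was that of Tcf7 and Tcf7l2 with a trace of Lef1. Summed over the 4 genes it was 28.0 and 37.6 RPKM in scr, 33.5 RPKM in wt and 73.2, 67.0 and 78.1 RPKM in knockdown. The share of that sum held by Tcf7 was 61.1% and 55.6% in scr, 69.5% in wt, and 79.7%, 76.9% and 75.2% in knockdown. Both the sum and the share were higher in each knockdown library than in each scr library, at the smallest p the design allows (exact permutation test, two-sided p = 0.2).

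At the cell surface, Lgr5 (chr10:115450314-115587780) encodes a receptor for R-spondins, secreted proteins that amplify Wnt signals, and is itself a target gene that marks stem cells of the gut and dividing cells near the central vein. Its level was 26.3 and 50.9 RPKM in scr 25-2 and 50-1, and 12.2, 9.20 and 12.0 RPKM in knockdown 25-3, 50-2 and 50-5. Every knockdown library was below both scr libraries, and the scr libraries themselves lay 1.93-fold apart. The means were 38.6 ± 17.4 RPKM in scr (SD, n = 2) and 11.1 ± 1.68 RPKM in knockdown (SD, n = 3), and Lgr5 fell 3.48-fold (log2 fold change -1.80, SE 0.30, adjusted p = 0.023). Parental cells had 35.6 RPKM, between the scr libraries. The log2 fold change ranged from -2.19 without scr 25-2 to -1.25 without scr 50-1, and the adjusted p was 0.0795 to 0.101 when a knockdown library was left out.

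The other R-spondin receptors are Lgr4 and Lgr6, of which Lgr6 was near the floor in scr. Lgr4 fell, from 14.4 and 17.8 RPKM in scr to 5.97, 6.94 and 8.26 RPKM in knockdown (log2 fold change -1.20, SE 0.19, adjusted p = 0.0194). Lgr6 rose from 4 and 1 counts in scr to 67, 140 and 312 counts in knockdown (0.585, 1.20 and 2.60 RPKM), called at an adjusted p of 0.0245, and it passed the filter on low values through knockdown libraries only. Its log2 fold change rests on 5 scr counts in all and ranged from 1.18 to 7.09 with the setting. Lgr6 was not called with limma on log2(RPKM + 1) (adjusted p = 0.0821), so its direction beside Lgr4 is not read as a result. Since Lgr6 stayed low, the summed level of the 3 receptors followed Lgr4 and Lgr5. It was 40.8 and 68.7 RPKM in scr and 18.7, 17.3 and 22.9 RPKM in knockdown, lower in each knockdown library. The exact permutation test gave a two-sided p = 0.2, the smallest possible. Lgr4 and Lgr5 were each lower without overlap, so this p-value adds nothing to the single-gene values.

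The LRP co-receptors, which bind Wnt together with Frizzled, were measured at similar levels and did not pass the test. Lrp6 (chr6:134446478-134566913) had 32.1 and 28.9 RPKM in scr and 47.6, 47.9 and 34.2 RPKM in knockdown, higher without overlap, with 50-5 close to scr 25-2. Its log2 fold change was 0.49 (SE 0.19, adjusted p = 0.144). Lrp5 (chr19:3584825-3686564) had 32.5 and 40.6 RPKM in scr and 25.6, 31.0 and 28.1 RPKM in knockdown, lower without overlap, with 50-2 close to scr 25-2. The log2 fold change of Lrp5 was -0.38 (SE 0.15, adjusted p = 0.158). The ratio of Lrp6 to Lrp5 RPKM was 0.987 and 0.711 in scr, 0.969 in wt and 1.86, 1.54 and 1.22 in knockdown. Lrp6 RNA thus exceeded Lrp5 RNA in the knockdown libraries only, though scr 25-2 and wt lay close to 1. The exact permutation test gave a two-sided p = 0.2, the smallest possible. With Lrp6 higher and Lrp5 lower without overlap, this order against scr was fixed before the test, and neither gene was called.

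In the destruction complex, Apc (chr18:34220984-34322190), the scaffold that holds beta-catenin for its kinases, had the log2 fold change nearest to 0 of the 10 genes. It had 18.3 and 17.7 RPKM in scr and 17.4, 18.8 and 17.4 RPKM in knockdown, with 12.9 RPKM in parental cells. The groups overlapped (log2 fold change -0.02, SE 0.12, adjusted p = 0.91). The sign of a value this close to 0 changed between settings.

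Axin2 (chr11:108920349-108950781), a scaffold of the same complex and the target gene most widely used as a readout of the pathway, was high in every library. It stood at 114 and 140 RPKM in scr and at 167, 118 and 197 RPKM in knockdown. The groups overlapped, since knockdown 50-2 lay between the scr libraries, and the means were 127 ± 18.5 RPKM (SD, n = 2) and 161 ± 39.9 RPKM (SD, n = 3). The log2 fold change was 0.33 (SE 0.25, adjusted p = 0.413). Set against beta-catenin RNA, Axin2 had 0.703 and 1.33 times the RPKM of Ctnnb1 in scr and 0.518, 0.389 and 0.842 times in knockdown, and these overlapped too (exact permutation test, two-sided p = 0.4).

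Nkd1 (chr8:88521344-88594887), a target gene whose protein binds Dishevelled and dampens the pathway, varied most among the 10 genes within a group. It had 14.7 and 78.6 RPKM in scr 25-2 and 50-1, a 5.33-fold gap between control libraries, and 28.6, 9.56 and 30.02 RPKM in knockdown. Knockdown 25-3 and 50-5 lay between the scr values and 50-2 lay below them. Its log2 fold change was -1.04 (SE 0.77, adjusted p = 0.401), and the sign depended on which scr library was kept: -1.79 without 25-2 and 0.61 without 50-1.

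The control libraries differed in the same direction for most of these genes. Scr 50-1 was higher than scr 25-2 in 7 of the 10. The share of all genes tested with scr 50-1 higher was not counted, so this is not read as particular to the 10. The gap exceeded 2-fold for 2 of the 10 (Nkd1 and Lef1), beside 13.2% of all genes tested. The parental library lay between the scr libraries for 5 genes, below both for 4 (Apc, Axin2, Lrp5 and Tcf7l2) and above both for Tcf7. The genes around the called members had median changes near 0. Over the genes tested within 5 Mb, the median log2 fold change was -0.08 near Ctnnb1 (54 genes), -0.01 near Tcf7 (76 genes) and -0.02 near Lgr5 (42 genes).

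**Figure D3:**
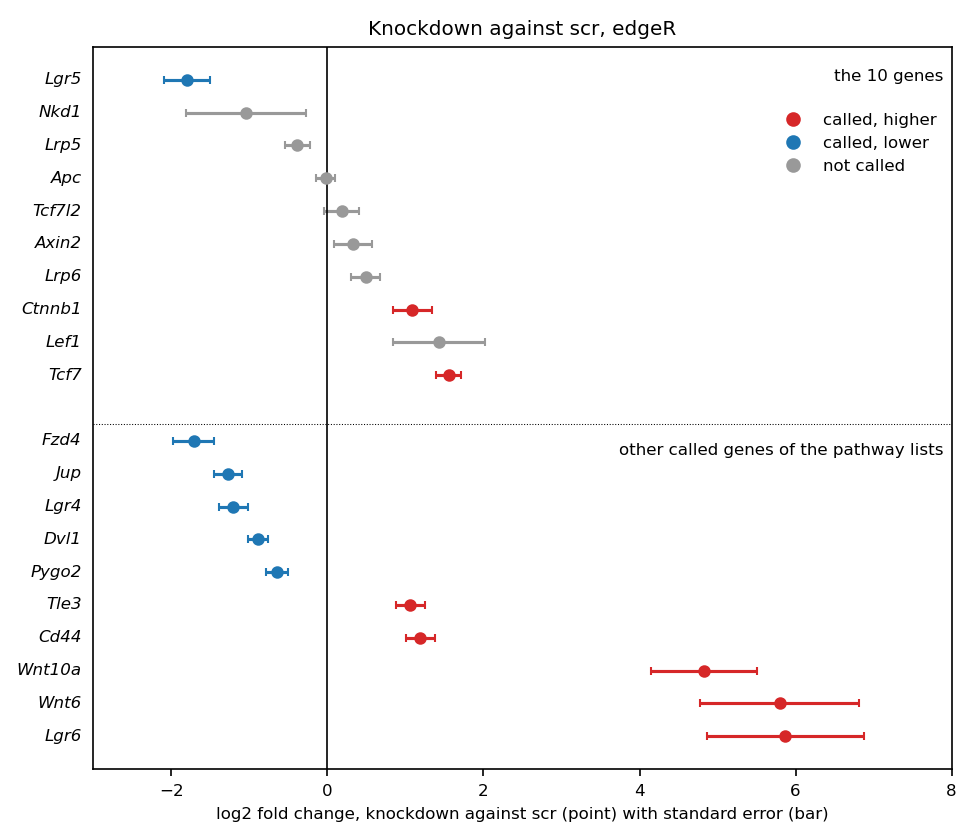
Log2 fold change of knockdown against scr (horizontal axis, edgeR) for the 10 genes and for the other called genes of the pathway lists, with bars of 1 standard error. Of the 10 genes, Lgr5 at -1.80 is called lower and Ctnnb1 at 1.09 and Tcf7 at 1.55 are called higher, while Nkd1 and Lef1 have the widest bars.

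Promoter letters that TCF/LEF factors are known to bind were looked for next. The core letters CTTTGAT (or ATCAAAG on the other strand) were searched in RefSeq windows (GRCm38.p6) from 250 bases before to 50 bases after each start. Of 32851 windows in the table, 1225 (3.73%) held the letters, and of 12 windows that belong to 6 of the 10 genes (Ctnnb1, Axin2, Nkd1, Tcf7, Tcf7l2 and Lef1), 0 did. Apc, Lrp5, Lrp6 and Lgr5 were left out of this set of 12, so the count says nothing about their windows. The set is therefore not every window the 10 genes may have, and its share is not compared with that of all windows. Below are the 100 bases just before the start of Ctnnb1, which rose, and of Axin2, which did not pass the test, at chr9:120933300-120933399 and chr11:108920249-108920348, and a stretch before the start of Sp5, a beta-catenin target outside the 10 genes chosen because its window held the motif, at chr2:70474809-70474908. All 3 are on the plus strand, and capitals mark the motif, which begins 104 bases before the Sp5 start.
Ctnnb1: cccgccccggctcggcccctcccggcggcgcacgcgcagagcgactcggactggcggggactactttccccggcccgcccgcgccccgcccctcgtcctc
Axin2: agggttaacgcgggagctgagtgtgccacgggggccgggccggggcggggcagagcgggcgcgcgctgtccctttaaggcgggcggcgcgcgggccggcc
Sp5: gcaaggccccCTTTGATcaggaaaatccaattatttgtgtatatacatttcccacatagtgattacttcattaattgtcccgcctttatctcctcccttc
The Ctnnb1 and Axin2 stretches are rich in G and C, and the Sp5 stretch is not. Sp5 stood at 75.4 and 42.1 RPKM in scr and at 52.1, 35.8 and 31.1 RPKM in knockdown, with overlapping groups (log2 fold change -0.58, SE 0.32, adjusted p = 0.278). A match or its absence in such a window describes the letters only.

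Around the 10 genes, a list of 127 other pathway genes was read from the same fit. Of these, 62 had at most 1 RPKM in the compared libraries, 65 were tested, and 5 were called higher and 5 lower (15.4%, beside 10.6% of all genes tested), with a median log2 fold change of -0.09. With a knockdown library left out, 1 to 3 of the listed genes were called. With the 25 or 50 of the labels as a term, Wnt6, Lgr6, Tle3 and Pygo2 lost their calls (adjusted p = 0.0563, 0.0516, 0.0507 and 0.069), and the other 6 kept theirs.

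Of 21 genes for Wnt ligands and their secretion, 3 passed the filter on low values and 2 were called, both higher. Of all genes tested, 5.4% were called higher. Wnt6 (chr1:74771892-74785319) had 1.20 and 0.917 RPKM in scr and 60.9, 13.5 and 103 RPKM in knockdown (log2 fold change 5.79, SE 1.02, adjusted p = 0.0266). Its neighbour Wnt10a (chr1:74792019-74804175), 6699 bases downstream on the same strand, had 0.398 and 0.447 RPKM in scr and 11.5, 5.33 and 19.5 RPKM in knockdown (log2 fold change 4.83, SE 0.68, adjusted p = 0.0157). Wnt10a, and Wnt5a below, passed the filter on low values through knockdown libraries only. The filter thus favoured higher values for them, and the shared direction of the ligands is not read as a result. For both genes the knockdown libraries kept the same order, with 50-2 lowest and 50-5 highest. The parental cells already had 22.5 RPKM of Wnt6 and 1.72 RPKM of Wnt10a, and with wt counted among the controls Wnt6 was no longer called (adjusted p = 0.175). Wnt5a, named after its values were seen, had 0.0431 and 0.919 RPKM in scr and 3.304, 5.98 and 8.68 RPKM in knockdown and was not called (adjusted p = 0.0958).

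**Figure D4:**
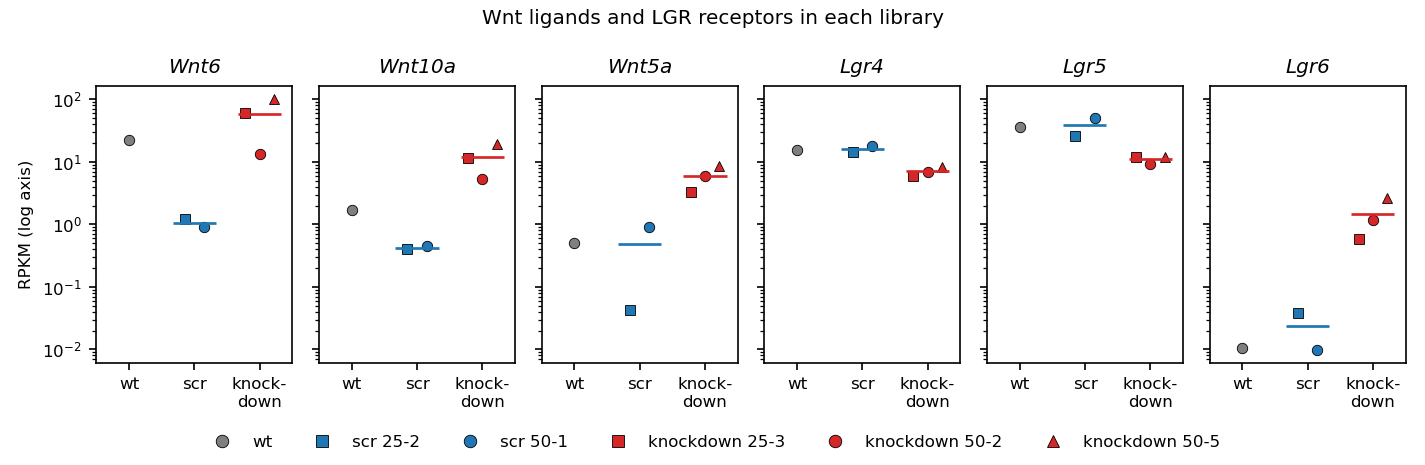
RPKM on a log axis of the Wnt ligands Wnt6, Wnt10a and Wnt5a and of the R-spondin receptors Lgr4, Lgr5 and Lgr6 in the wt, scr and knockdown libraries, each point a library. Wnt6 spans 13.5 to 103 RPKM in knockdown against 0.917 and 1.20 in scr, and wt at 22.5 lies inside the knockdown range, above 50-2, while Lgr4 and Lgr5 are lower in all 3 knockdown libraries than in both scr libraries.

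Of 25 receptor and surface genes, 14 were tested, with 1 called higher (Lgr6) and 2 lower (Lgr4 and Fzd4). Fzd4, a Frizzled receptor, had 8.34 and 14.3 RPKM in scr and 3.08, 3.40 and 3.95 RPKM in knockdown (log2 fold change -1.71, SE 0.26, adjusted p = 0.019). Rnf43 and Znrf3, the ligases that remove Frizzled and that R-spondin receptors restrain, were not called (log2 fold changes -0.95 and -0.46, adjusted p = 0.116 and 0.387). Of 15 secreted inhibitors 1 was tested, Notum, whose scr values of 0.0505 and 1.29 RPKM enclosed the knockdown values.

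Of 20 cytoplasmic components 18 were tested and 2 were called, both lower: Jup, above, and Dvl1, a Dishevelled protein that passes the signal on from Frizzled, at 24.1 and 23.6 RPKM in scr and 12.7, 12.3 and 14.0 RPKM in knockdown (log2 fold change -0.89, SE 0.13, adjusted p = 0.0158). The 55 genes tested within 5 Mb of Dvl1 had a median of -0.51. Gsk3b, which encodes a kinase that marks beta-catenin, was not called (log2 fold change -0.44, adjusted p = 0.0752). Of 15 nuclear cofactors 13 were tested. Tle3, a co-repressor of TCF factors, rose from 9.09 and 12.2 RPKM to 23.8, 19.8 and 23.6 RPKM (log2 fold change 1.06, SE 0.18, adjusted p = 0.0256). Pygo2, a co-activator in the beta-catenin complex, fell from 14.2 and 11.9 RPKM to 8.57, 8.16 and 8.55 RPKM (log2 fold change -0.65, SE 0.14, adjusted p = 0.0429), a call kept in 5 of 14 alternatives.

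Of 12 general target genes outside the 10, 10 were tested, with 5 lower and 5 higher, and 1 was called, Cd44, a hyaluronan receptor, which rose from 81.5 and 81.4 RPKM to 163, 227 and 173 RPKM (log2 fold change 1.19, SE 0.18, adjusted p = 0.019). Myc and Ccnd1, growth genes often listed as targets, had log2 fold changes of 0.27 and 0.03 (adjusted p = 0.371 and 0.952). Of 9 genes that the pathway turns on in pericentral hepatocytes, 5 were tested and 0 called in edgeR (4 at an unadjusted p under 0.05, 3 called in DESeq2, 0 in limma). Over all 11577 genes tested, 3641 had an unadjusted p under 0.05 and 2322 were called in DESeq2. The log2 fold change was below 0 for 4 of the 5, with a median of -0.80. Slc1a2, a glutamate transporter gene, had 7.21 and 40.0 RPKM in scr and 3.08, 0.795 and 1.88 RPKM in knockdown (adjusted p = 0.0504). Lect2, which encodes a protein secreted by hepatocytes, had 103 and 120.4 RPKM in scr and 45.8, 69.0 and 79.6 RPKM in knockdown, lower without overlap (adjusted p = 0.0958). Cldn2 and Oat, at log2 fold changes of -4.30 and -0.09, overlapped between the groups (adjusted p = 0.0909 and 0.894). The sign for Oat turned with the scr library kept, from -0.59 without 25-2 to 0.71 without 50-1. The glutamine synthetase gene Glul, above 0, had 82.7 and 109.9 RPKM in scr and 132, 135 and 215 RPKM in knockdown (adjusted p = 0.144). Of 10 periportal genes 1 was tested, Gls2, with overlapping groups (adjusted p = 0.846).

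Markers of cell identity were read from the same fit. The summed level of 8 hepatocyte markers was 2806 and 3608 RPKM in scr and 974, 467 and 216 RPKM in knockdown, and 0 of the 7 tested were called in edgeR (4 at an unadjusted p under 0.05, 3 called in DESeq2 and 0 or 1 in limma, by pseudocount), to be read beside the same 3641 and 2322 of all 11577 genes. Alb alone had 1877 and 2804 RPKM in scr and 336, 62.7 and 20.9 RPKM in knockdown (adjusted p = 0.0712), whereas Apob, of the same list, had 3.00 and 1.07 RPKM in scr and 52.2, 37.8 and 4.37 RPKM in knockdown (adjusted p = 0.0822). Of the 7 tested, 4 had a log2 fold change below 0 and 3 above, and Hnf4a overlapped between the groups. Of the markers of other cell types, 4 of 6 fibroblast, 4 of 5 endothelial, 3 of 5 macrophage and 1 of 5 cholangiocyte markers were under 1 RPKM in every library. The fibroblast sum was 594 and 562 RPKM in scr and 576, 411 and 462 RPKM in knockdown, nearly all of it Dcn, while the collagen gene Col1a1 reached 0.208 RPKM at most. Pdgfra of that list was called higher, from 0.308 and 0.167 RPKM to 2.70, 1.90 and 1.58 RPKM. It passed the filter on low values through knockdown libraries only, and it was not called with wt among the controls (adjusted p = 0.294). The endothelial sum was 0.147 to 0.371 RPKM in scr and knockdown, and 2.89 RPKM in wt, nearly all of it Pecam1 (2.85 RPKM). The macrophage sum was 4.26 and 5.03 RPKM in scr and 8.66, 9.35 and 13.7 RPKM in knockdown, and its tested genes Csf1r and Cd68 were higher without overlap but not called (adjusted p = 0.193 and 0.0989). The cholangiocyte sum, mostly Spp1, was 565 and 204 RPKM in scr and 379, 454 and 554 RPKM in knockdown. Krt7 of that list was called lower, from 21.3 and 13.9 RPKM to 0.858, 1.89 and 2.15 RPKM. In wt the hepatocyte and fibroblast sums, 4888 and 1030.5 RPKM, were also above both scr libraries. The wt macrophage sum, 4.12 RPKM, was below both, and the cholangiocyte sum, 233 RPKM, lay between them. The part of hepatocyte, macrophage or other marker RNA in the changes of Ctnnb1, Tcf7 and Lgr5 was not tested.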

How the data were processed

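Total RNA depleted of ribosomal RNA was sequenced from 6 Hepa1-6 libraries as single reads. The authors aligned reads to mm10 with TopHat2 and made the deposited counts per RefSeq gene with HTSeq. Whether reads were counted by strand is not given in the sources used here, so reads of antisense neighbours (such as Gm10548 at Apc, at most 18 counts) cannot be told apart. The deposited RPKM values are those counts scaled by exon length and by library size, which the authors had corrected with TMM in edgeR.

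Here, knockdown (3 libraries) was compared with scr (2 libraries) on the counts with edgeR 4.0.16 (glmQLFit and glmQLFTest, TMM), for genes above 1 RPKM in at least 1 compared library, with Benjamini-Hochberg adjustment over all genes tested. Genes at an adjusted p under 0.05 and a fold of at least 1.5 were called. The SE was obtained from the F statistic, as the size of the log2 change over the root of F. Values computed within a library were compared by exact permutation (scipy 1.17.1). The scripts were tested on simulated data. The ribosomal RNA gene Rn45s held 10.1 to 13.1% of counts and was kept in the library totals. The common biological coefficient of variation was 0.272.

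The 10 genes were named by the rule of the report. Of the other lists, every called gene is named, and the few uncalled genes named were chosen after their values were seen. The members and lists were chosen with earlier results of these data known. In all 14 alternatives were tried, with DESeq2 1.42.0 and limma 3.58.1 among them. Promoter sequences are from RefSeq.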

Additional observations from a re-analysis of the deposited data

Results flagged for a closer look

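The parental cells are a library outside the comparison of knockdown with scr. Their signal was set beside scr for the 10 genes and for the 12 other called genes named. It stood above both scr libraries by at least 1.5-fold for 3 of the 12 and for none of the 10. The share of all genes that do so was not counted. Wnt6 had 22.5 RPKM in wt, beside 1.20 and 0.917 RPKM in scr. Wnt10a had 1.72 RPKM in wt, beside 0.398 and 0.447 RPKM in scr. Pdgfra, a fibroblast marker, had 1.93 RPKM in wt, beside 0.308 and 0.167 RPKM in scr. With 1 parental library these differences have no replicate check.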

How the results depend on the processing

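Of the 10 genes, 3 were called as reported; with any knockdown library left out 1 was (Tcf7), and across the settings that leave out a library 1 to 3 were. Over all genes, 1230 were called as reported, 2322 with DESeq2, 807 with the 25 or 50 of the labels as a term, and 131 to 2273 with a library left out (131 without knockdown 50-2, 259 without 25-3, 346 without 50-5, 2273 without scr 25-2). Of the other pathway lists, 10 genes were called as reported, 26 with DESeq2, 6 with the label term, and 1 to 20 with a library left out (1 without knockdown 25-3, 20 without scr 25-2). The sign of the log2 fold change reversed for Apc with total counts (0.0029) and with wt among the controls (0.13). With a library left out it also reversed for Apc (-0.0526 to 0.0121), for Nkd1 (-1.79 without scr 25-2 to 0.61 without scr 50-1) and for Tcf7l2 (-0.0667 without scr 25-2 to 0.50 without scr 50-1). The cause was not tested. With a scr library left out, the lone scr library is assumed to vary like the knockdown libraries. Direction held for the other 7 genes in all 14 alternatives, with Ctnnb1 called in 8, Lgr5 in 11 and Tcf7 in 14. The groups share no replicate number, and what the 25 or 50 they do share stands for is not given, so the term for it is not read as a pairing. Depth was somewhat higher in each knockdown library (30833140 to 33119710 counts) than in scr (28782355 and 29764550), and lowest in wt (25586301). The low counts of Lef1 in scr limit its value.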
